A study of Danio rerio with 12 samples.

Results

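Voltage-gated sodium and calcium channels were examined in RNA-Seq libraries from zebrafish larval heads that carried or lacked a functional *rb1* gene, the zebrafish counterpart of the human RB1 tumor suppressor. The genes were taken by name: every row of the gene count table whose symbol begins with scn and a digit, or with cacna, cacnb or cacng, and that holds at least 10 counts over the 12 sequencing columns. This gave 61 genes of the 32266 in the table, and all 61 also passed the filter on low counts before testing. Both groups were larvae of the WIK strain, 5 days post fertilization (dpf), from crosses between heterozygous adults, and each library was made from 5 pooled dissected heads. One group was homozygous rb1-/- mutant, with a germline frameshift allele present in every cell, and the other was +/+ wild-type siblings, with 3 pools of each genotype. A head holds brain, retina, inner ear, jaw and eye muscle, skin and other tissues, so fewer cells of a type and less RNA per cell cannot be told apart in these values.

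Sodium channels of the Nav family open when a membrane is depolarized and carry the rising phase of the action potential. Each consists of a pore-forming α subunit and smaller β subunits that adjust its gating and anchor it to neighboring proteins. Calcium channels of the Cav family turn the same electrical signal into calcium entry, which triggers transmitter release at synapses, contraction in muscle and the graded output of photoreceptors and hair cells. Their α1 subunits form the pore and fall into the high-voltage families Cav1 and Cav2 and the low-voltage family Cav3, while α2δ and β subunits bring the pore to the membrane. Most proteins encoded by the cacng (γ) genes are better known as TARPs, which escort AMPA-type glutamate receptors to the synapse. The 61 genes comprised 8 Nav α, 6 Nav β, 7 Cav1 α1, 6 Cav2 α1, 4 Cav3 α1, 7 Cav α2δ, 7 Cav β and 16 Cav γ genes. By the tissue in which the isoform is best known, 10 were classed as muscle, 7 as photoreceptor and hair cell, and 5 as other. Those 5 are linked to the heart, and the remaining 39 were classed as neuronal by default.

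The libraries held between 41065256 and 47700950 gene counts, and the channel genes took between 0.173% and 0.253% of them. The lowest count for any channel gene in any pool was 23, for cacng4a in wild-type pool 3. CPM below are counts scaled to library size with the TMM method, and FPKM, which divides by exonic length, was used wherever levels of different genes were compared. The targeted gene followed its label: rb1 stood at 11.6, 9.84 and 9.52 CPM in mutant pools 1, 2 and 3 and at 26.8, 20.8 and 18.4 CPM in wild-type pools 1, 2 and 3, and it fell by 1.09 on the log2 scale (standard error (SE) 0.161, adjusted p = 0.0121, edgeR). Leaving out wild-type pool 2 raised that adjusted p to 0.0585 with the log2 fold change at -1.13 (edgeR), the highest of any alternative, and the lowest was 2.6e-07 (DESeq2). Of 59 marker genes of 8 cell types in heads, 58 were found by symbol and none was at 0 in any pool. Proliferation markers were higher in the mutants in 5 of 6 genes at an adjusted p of 0.05 (summed 1129 to 1277 CPM against 450 to 707 CPM), among them mki67 and pcna, and in 6 of 6 with pool number as a block. Lower markers at the same threshold (edgeR) were rho and gnat1 of rod photoreceptors, slc17a8 and cabp2b of hair cells, and mbpa and plp1a of myelinating glia. Of the 8 hair cell markers, 6 were below 0 (median -0.16), myo6b and tmc1 were above 0, and none passed besides the 2 named. No neuron, skeletal muscle or heart marker passed in edgeR, and how far cell composition enters the channel values was not tested.

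No channel gene differed between genotypes at either threshold used. With edgeR's quasi-likelihood test and Benjamini-Hochberg adjustment over 22753 genes, 0 of 61 channel genes had an adjusted p of at most 0.01 together with a change of at least 1.5-fold, against 1.18% of all genes tested (0.897% higher and 0.286% lower). At an adjusted p of at most 0.05 with any fold the count was again 0 of 61, against 5.99% of all genes. Before adjustment, 6 of 61 channel genes had a p under 0.05, all lower in mutants (9.84%, against 23.3% of all genes). Among them were scn4bb, scn4ba, cacna2d4b, cacnb3b and scn4ab. DESeq2 on the same counts gave 3 genes an adjusted p of at most 0.05, all of them sodium channel β subunits.

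Small differences leaned to one side. Of the 61 channel genes, 44 (72.1%) had a log2 fold change below 0, against 51.8% of all genes, and the median was -0.13, against -0.01 over all genes. The values ran from -0.73 for scn4bb to 0.34 for cacng4b. The precision was moderate: for 35 of 61 genes (57.4%, against 52.2% of all genes) the 95% interval of the change lay within 1.5-fold either way, so a larger change was outside the interval for those genes and inside it for the rest. The lean depended most on one library. Without mutant pool 3 the count below 0 was 34 of 61 (55.7%, against 50.7% of all genes) and the median was -0.02. With any other single pool left out it was 44 to 51 of 61. The highest count came without mutant pool 2 (83.6%, against 51% of all genes, median -0.26).

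**Figure D1:**
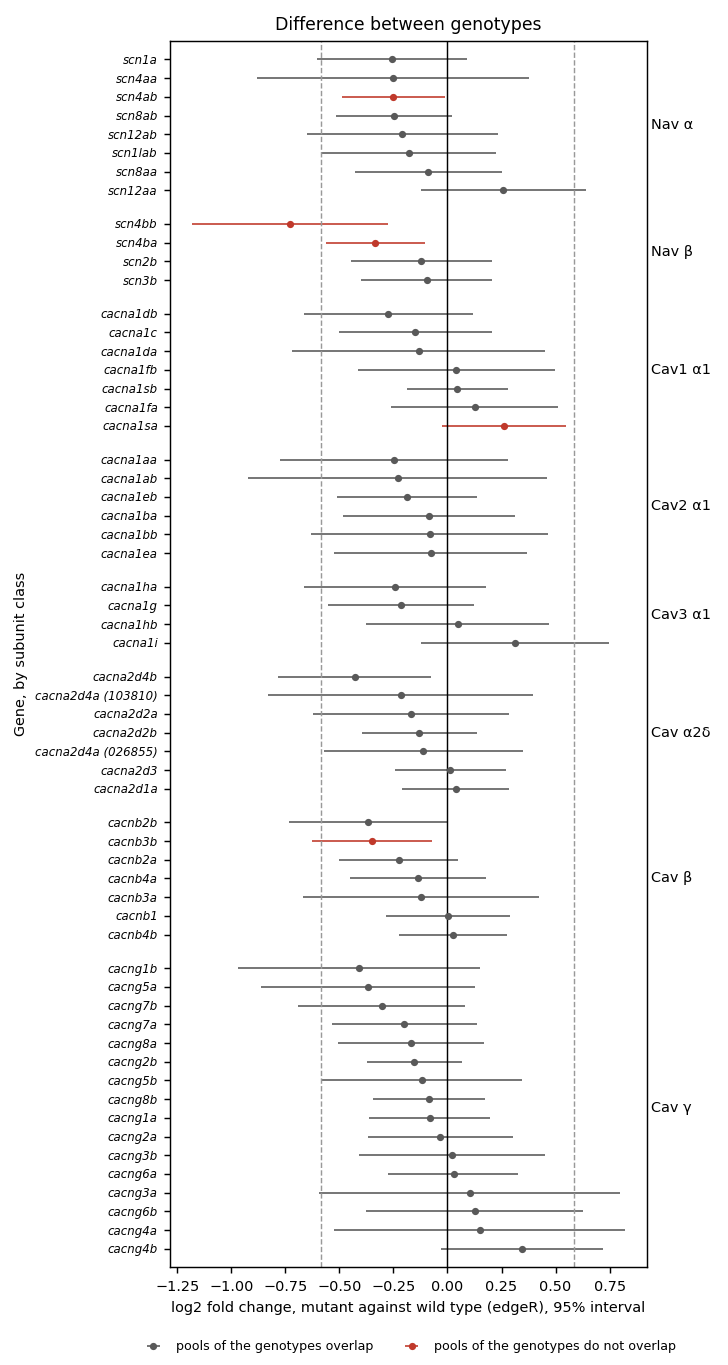
Log2 fold change of each of 59 channel genes, mutant against wild type, with its 95% interval (edgeR, 3 pools of each genotype), grouped by subunit class. Points left of 0 are lower in mutants, dashed lines mark 1.5-fold, and red marks the 5 genes drawn whose mutant and wild-type pools do not overlap, 4 of them lower in mutants.

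Mutant pool 3 stood apart from the other pools in most channel genes outside muscle. It held the lowest value of all 6 pools in 36 of 61 channel genes (59.0%), while it was lowest in 20.9% of all genes tested. Among the 39 neuronal channel genes it was lowest in 28 (71.8%), and among the 10 muscle channel genes in 2. Mutant pool 2 held the highest value in 24 of 61 channel genes (39.3%, against 17.2% of all genes) and in 19 of the 39 neuronal ones. Against the mean of the other mutant pools, the median channel gene in mutant pool 3 was -0.30 on the log2 scale and the median of all genes was 0.04. By tissue the median was -0.36 for neuronal, -0.42 for the 5 classed as other, -0.22 for photoreceptor and hair cell and 0.03 for muscle channel genes. Neuron markers moved the same way: the median of their 8 genes relative to wild type was 0.07, 0.13 and -0.30 in mutant pools 1, 2 and 3, and their summed level was 2176, 2405 and 1804 CPM, against 1982 to 2200 CPM in wild type. The neuronal channel genes stood at -0.14, 0.09 and -0.37 in the same 3 pools. There the 5 channel genes classed as other stood at -0.23, 0.03 and -0.43, and heart markers at -0.03, -0.65 and -0.24. Whether mutant pool 3 held less neural tissue was not tested. Genes named by rule are given below without mutant pool 3 where their log2 fold change moved by over 1.5 times or changed sign. For class medians it is given where the median is described, and the closing section gives each median's range with 1 pool left out.

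**Figure D2:**
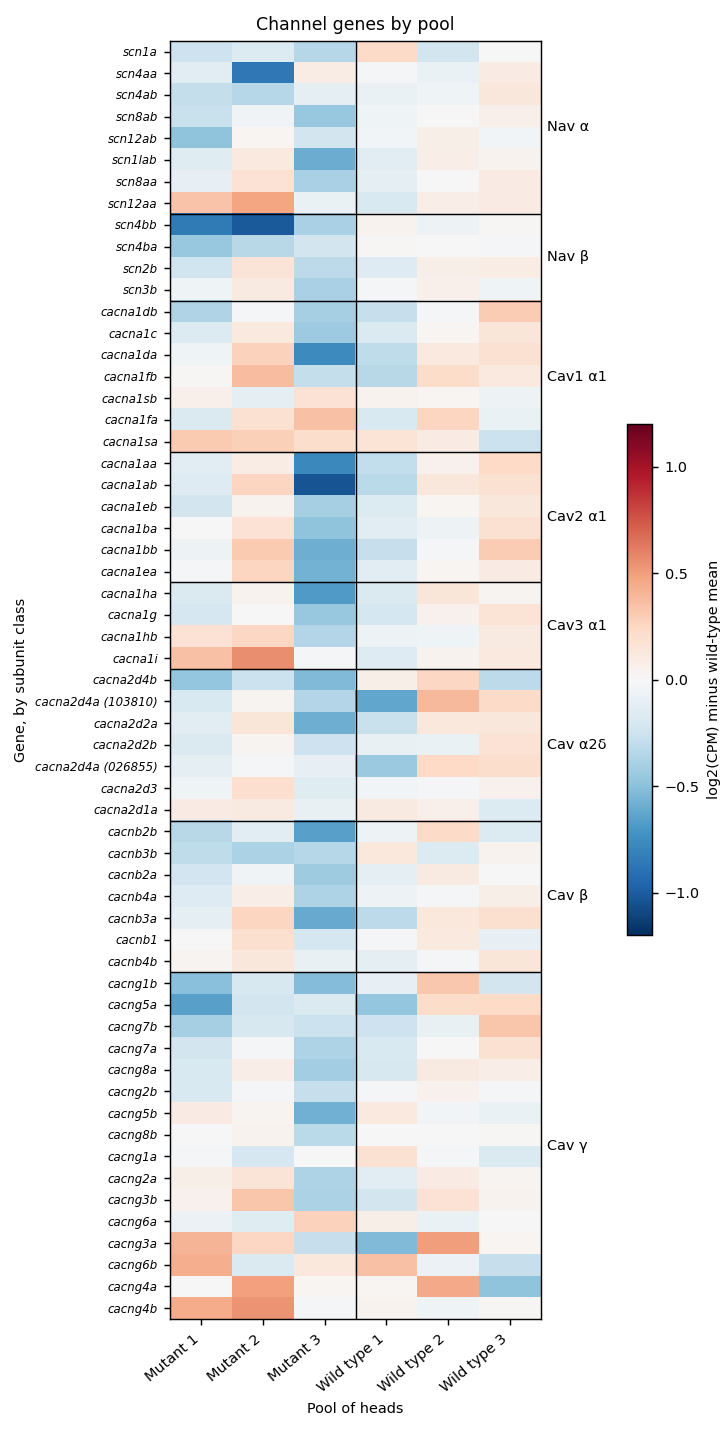
Log2 CPM of 59 channel genes in each pool minus its mean over the wild-type pools, with blue below and red above that mean. The column of mutant pool 3 is mostly blue, with the deepest blue in Cav2 α1 genes, and it is the lowest of the 6 pools in 35 of the genes drawn.

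**Figure D3:**
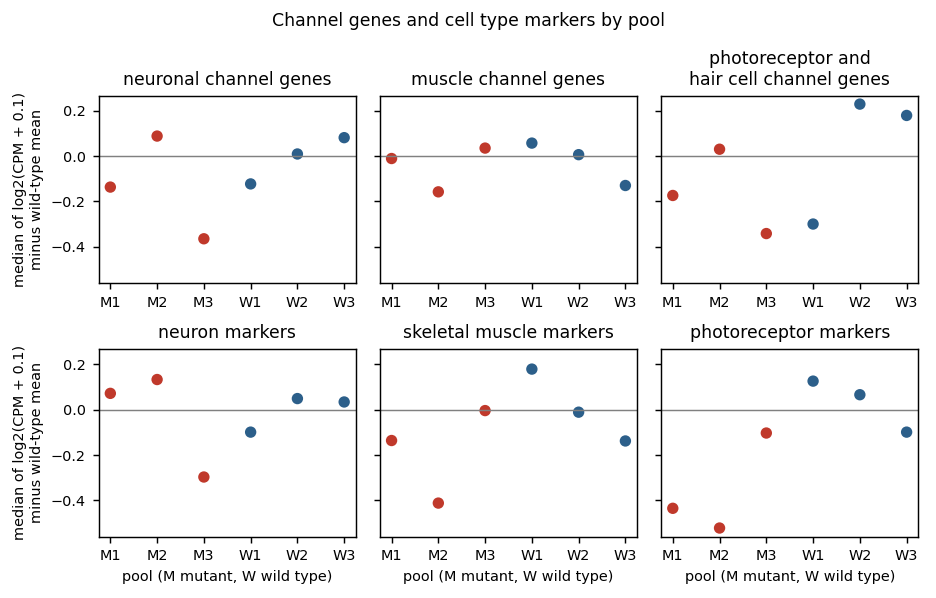
Median over genes of log2(CPM + 0.1) minus the wild-type mean in each pool (M mutant, red, W wild type, blue), for channel genes by tissue in the upper row and for cell type markers in the lower row. Neuronal channel genes and neuron markers are both lowest in mutant pool 3, at -0.37 and -0.30, whereas muscle channel genes are not.

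Among sodium channel α subunits, scn8aa was the most abundant. This gene encodes the zebrafish counterpart of Nav1.6, a main channel of neuronal axons, and it supplied 44.7% of the summed FPKM of the 8 Nav α genes (24.4 ± 5.48 FPKM in mutants and 24.8 ± 1.90 in wild type, mean ± SD, n = 3). Its level was 161, 194 and 132 CPM in mutant pools 1, 2 and 3 and 160, 173 and 184 CPM in the wild-type pools. The mutant pools spanned the wild-type range on both sides, and the log2 fold change was -0.09 (SE 0.146, adjusted p = 0.770, edgeR), or 0.04 without mutant pool 3. Next in FPKM came scn1lab, the gene whose loss causes seizures in zebrafish larvae, followed by scn8ab and scn4ab, and each of the other 4 genes took at most 3.15% of the class.

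Of the 8 Nav α genes, 7 had a log2 fold change below 0, with a class median of -0.23 (-0.18 without mutant pool 3). The 1 above 0 was the heart-linked scn12aa. scn4ab encodes the skeletal muscle channel, and it was chosen for description after its values were seen. It held 53.4, 51.3 and 59.9 CPM in mutant pools and 61.4, 62.8 and 71.6 CPM in wild-type pools. Every mutant pool was below every wild-type pool, with a log2 fold change of -0.25 (SE 0.103, adjusted p = 0.193, edgeR). The 5 channel genes that were lower and the 1 that was higher without overlap made up 9.84% of the 61, against 29.2% of all genes (13.2% lower and 16.1% higher). Skeletal muscle markers were below 0 in 10 of 11 rows, with a median of -0.22 and summed levels of 12710 to 16500 CPM in mutants against 15220 to 18890 CPM in wild type, and none passed an adjusted p of 0.05 in edgeR. With DESeq2 myhz2 passed, at a log2 fold change of -0.39 and an adjusted p of 0.0140. The part of these markers in the scn4ab values was not tested. scn12aa, related to the cardiac sodium channel of mammals, was one of the genes with the largest positive log2 fold change, 0.26 (SE 0.165, adjusted p = 0.399, edgeR). Without mutant pool 3 it was 0.40 (adjusted p = 0.111, edgeR). Its values were 11.5, 12.6 and 8.59 CPM in mutants and 8.02, 9.61 and 9.73 CPM in wild type. Mutant pools 1 and 2 were above all wild-type pools and mutant pool 3 lay among them. Heart markers were below 0 in 6 of 6 genes, none passing the test.

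Sodium channel β subunits held the differences that came closest to the threshold. All 6 genes had log2 fold changes below 0, with a median of -0.23 (-0.21 without mutant pool 3). Of the 6, 3 were lower without overlap between genotypes, among them scn4bb and scn4ba, against 13.2% of all genes. scn2b at -0.12 (SE 0.140) and scn3b at -0.10 (SE 0.130) overlapped. In mammals, β4 subunits, encoded by scn4b genes, support the rapid reopening of sodium channels in fast-firing neurons. scn4bb was the lowest-expressed β gene, at 1.43, 1.28 and 1.96 CPM in mutant pools and 2.66, 2.48 and 2.60 CPM in wild-type pools. Its mutant mean was 1.56 ± 0.358 CPM against 2.58 ± 0.0921 CPM (SD, n = 3), a 1.66-fold lower level and a log2 fold change of -0.73 (SE 0.195, 95% interval -1.18 to -0.28). Its adjusted p was 0.0715 in edgeR and 0.0288 in DESeq2. Mutant pool 3 was the mutant pool nearest to wild type for this gene, and without it the log2 fold change was -0.93 with an adjusted p of 0.0295 (edgeR). Over all alternatives its adjusted p ran from 0.0288 to 0.244 (edgeR or DESeq2), and its log2 fold change stayed below 0.

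scn4ba, described after its values were seen, held 13.0, 14.1 and 15.3 CPM in mutants and 18.1, 17.9 and 17.5 CPM in wild type. Its pools were separated as well, at -0.33 on the log2 scale (SE 0.0982), with adjusted p values of 0.0908 in edgeR and 0.0498 in DESeq2. Myelin markers were lower in the same pools, with mbpa at 67.5, 65.2 and 93.3 CPM in mutants against 141, 132 and 152 CPM in wild type. Of 4 glial markers 2 passed (mbpa and plp1a, both lower). By contrast, gfap at 0.04 and fabp7a at 0.16 on the log2 scale were above 0 and did not pass. The summed level, mostly from fabp7a, was 480 to 534 CPM in mutants against 508 to 580 CPM in wild type. The part of glial markers in the β subunit values was not tested.

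**Figure D4:**
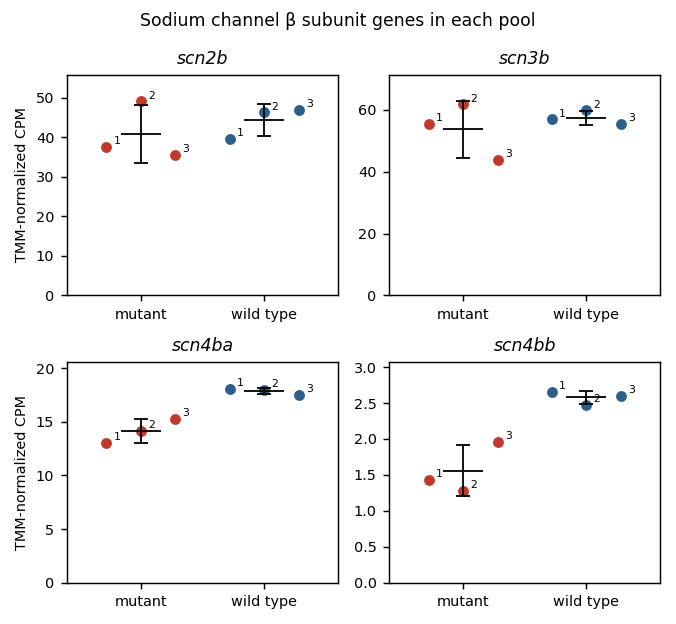
TMM-normalized CPM of 4 sodium channel β subunit genes in each pool, with the pool number beside each point and the mean ± SD (n = 3) as bars. scn4ba and scn4bb are lower in every mutant pool than in every wild-type pool, whereas scn2b and scn3b overlap.

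Cav1 channels, the L type, serve muscle contraction, hair cells and photoreceptors. Their 7 genes had a median log2 fold change of 0.04, which was 0.00 without mutant pool 3 and ran from -0.14 to 0.06 when each pool was left out in turn, so it had no stable sign. cacna1fa encodes a Cav1.4 channel of the photoreceptor ribbon synapse. Over all pools together it was the Cav1 gene with the highest mean FPKM (8.23 ± 1.36 in mutants and 7.25 ± 1.17 in wild type, mean ± SD, n = 3). In wild type alone cacna1da was higher, at 7.52 ± 1.32 FPKM. The cacna1fa values were 41.1, 52.7 and 59.4 CPM in mutant pools and 40.9, 55.6 and 43.9 CPM in wild-type pools. The genotypes overlapped over most of their range. The log2 fold change was 0.13 (SE 0.166, 95% interval -0.26 to 0.51, adjusted p = 0.710, edgeR) and came to 0.00 without mutant pool 3, which was the highest pool for this gene. Its duplicate cacna1fb gave 0.04 (SE 0.196).

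Of 12 photoreceptor markers in the same libraries, 2 passed an adjusted p of 0.05 (edgeR), both lower, and the other 10 did not. Log2 fold changes were below 0 for 11 of the 12, with a median of -0.35 and overlapping summed levels of 14810 to 20670 CPM in mutants against 19920 to 22800 CPM in wild type. rho, the rod opsin, fell by 0.69 (adjusted p = 0.0161) and gnat1, rod transducin, fell by 0.74 (adjusted p = 0.0195, both edgeR). Relative to the mean log2 level of the 12 markers, cacna1fa stood at -4.14, -3.64 and -3.98 in mutants and at -4.80, -4.22 and -4.42 in wild type. These ratios did not overlap, and their means were 0.56 apart on the log2 scale (exact permutation test, two-sided, p = 0.1, the smallest that 3 pools against 3 allow, 0.4 after adjustment over the 4 ratios computed). A ratio of this kind shows only that the gene and the markers changed unequally. For cacna2d4b, an α2δ gene of the same synapse, the corresponding difference was 0.02 (exact p = 1), and for cacna1fb it was 0.47 (exact p = 0.4).

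The skeletal muscle Cav1 gene cacna1sa was the single channel gene higher in mutants without overlap. Its protein is the voltage sensor of excitation-contraction coupling, the step that links the muscle action potential to calcium release. The values were 26.1, 25.7 and 24.3 CPM in mutants and 23.5, 22.5 and 17.6 CPM in wild type. The lowest mutant pool was just above the highest wild-type pool, and the log2 fold change was 0.26 (SE 0.124, adjusted p = 0.256, edgeR). Its duplicate cacna1sb gave 0.05 (SE 0.1001), and the muscle β gene cacnb1 gave 0.00 (SE 0.123). Over the 10 muscle channel genes the median was 0.01 (-0.07 without mutant pool 3). The remaining Cav1 genes, cacna1c of the heart and brain and cacna1da and cacna1db of neurons and hair cells, ranged from -0.27 to -0.13 and overlapped.

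Cav2 channels trigger fast transmitter release, and their 6 genes showed the pool pattern most clearly. All 6 were below 0 with a median of -0.14, all 6 were lowest in mutant pool 3, and without that pool the median was 0.07. cacna1aa, a P/Q-type gene, supplied 48.4% of the summed Cav2 FPKM and held 193, 225 and 124 CPM in mutants and 173, 220 and 250 CPM in wild type. Its first pair of mutant pools lay inside the wild-type range and the third far below it. The log2 fold change was -0.25 (SE 0.227, adjusted p = 0.569, edgeR), against -0.04 without mutant pool 3. Relative to the other mutants, the median Cav2 gene in mutant pool 3 was -0.71 on the log2 scale.

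The low-voltage Cav3 channels, which set rhythmic firing in thalamic and other neurons, behaved alike in that pool, where 4 of 4 genes had their lowest mutant value. cacna1g, with 51.2% of the Cav3 FPKM, held 41.6, 48.0 and 34.8 CPM in mutants and 41.2, 49.4 and 53.6 CPM in wild type. The groups overlapped, with a log2 fold change of -0.21 (SE 0.146, adjusted p = 0.433, edgeR), or -0.10 without mutant pool 3. cacna1i was among the genes with the largest positive values, at 3.23, 3.71 and 2.48 CPM in mutants and 2.26, 2.60 and 2.73 CPM in wild type, a log2 fold change of 0.31 (SE 0.187, adjusted p = 0.370, edgeR), or 0.45 without mutant pool 3. Mutant pools 1 and 2 were above every wild-type pool. As a share of the Cav3 FPKM within each library, cacna1i took 4.44% ± 0.0114 in mutants and 3.15% ± 0.0722 in wild type (SD, n = 3), without overlap. These shares rest on 158, 185 and 110 counts in mutants and 103, 104 and 123 in wild type. The SD of 3 such shares does not measure counting error. Shares within a class were computed for all 61 genes, and 10 did not overlap between genotypes, 6 higher and 4 lower in mutants, with no such share computed over other genes. Among these was scn12aa, at 3.59% ± 0.252 of the Nav α FPKM in mutants against 2.72% ± 0.149.

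The α2δ subunits, which carry channels to the membrane and some of which are targets of gabapentin-type drugs in mammals, had a median of -0.13 (-0.07 without mutant pool 3). cacna2d4b, whose human counterpart is a photoreceptor subunit, was the most abundant by FPKM (11.96 ± 1.596 in mutants and 15.4 ± 2.85 in wild type, mean ± SD, n = 3). It held 44.1, 51.0 and 42.3 CPM in mutants and 63.9, 72.3 and 48.9 CPM in wild type. Only mutant pool 2 exceeded the lowest wild-type pool. The log2 fold change was -0.43 (SE 0.152, 95% interval -0.78 to -0.08, adjusted p = 0.141, edgeR), and -0.38 without mutant pool 3. The photoreceptor marker values stand with cacna1fa above, and their part in the cacna2d4b values was not tested. The table holds 2 rows named cacna2d4a, ENSDARG00000103810 and ENSDARG00000026855, at -0.22 (SE 0.265) and -0.11 (SE 0.198), and whether these are parts of one gene was not tested, so both are uncertain.

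Among Cav β subunits, cacnb4b alone made up 50.8% of the summed FPKM. Over all pools together it had the highest mean FPKM of the channel genes, although not in wild type alone (41.8 ± 4.75 in mutants and 39.3 ± 3.91 in wild type, mean ± SD, n = 3). It is a neuronal subunit, and it held 156, 168 and 144 CPM in mutants and 141, 151 and 169 CPM in wild type. The ranges nearly coincided and the log2 fold change was 0.03 (SE 0.108, 95% interval -0.22 to 0.27, adjusted p = 0.922, edgeR), with a sign that depended on which pool was left out and a value of 0.08 without mutant pool 3. cacnb2b, related to the β subunit of heart and of mammalian photoreceptor synapses, held 24.6, 28.3 and 19.7 CPM in mutants and 29.8, 36.3 and 27.6 CPM in wild type. Mutant pool 2 overlapped the lowest wild-type pool, and the log2 fold change was -0.37 (SE 0.159, adjusted p = 0.217, edgeR), or -0.24 without mutant pool 3. cacnb3b, described after its values were seen, was lower without overlap, at 7.10, 6.71 and 6.90 CPM against 9.55, 7.81 and 9.02 CPM, a log2 fold change of -0.35 (SE 0.120, adjusted p = 0.131, edgeR).

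The 16 γ genes had a median of -0.08 (-0.02 without mutant pool 3), with 10 below 0 and no gene separated between genotypes. The TARP gene cacng2b, whose mammalian counterpart is stargazin, was the most abundant (17.7 ± 2.24 FPKM in mutants and 18.9 ± 0.485 in wild type, mean ± SD, n = 3) and held 37.2, 41.8 and 35.0 CPM in mutants and 41.6, 43.8 and 41.5 CPM in wild type. Mutant pools 1 and 3 were below every wild-type pool, for a log2 fold change of -0.15 (SE 0.0943, adjusted p = 0.379, edgeR), or -0.10 without mutant pool 3. cacng5a stood at 9.33, 12.6 and 13.0 CPM in mutants and 10.7, 17.1 and 17.3 CPM in wild type, and the log2 fold change was -0.37 (SE 0.213, adjusted p = 0.353, edgeR). In each of the 3 same-numbered pairs of pools the mutant value was lower for cacng5a, cacna2d4b and cacnb2b. The same held for scn8ab, cacnb2a and other channel genes, and no share of all genes is given for it. With pool number as a block the adjusted p values of cacng5a, cacna2d4b and cacnb2b were 0.0821, 0.0540 and 0.0513 (edgeR), still above 0.05. cacng4b was the gene with the largest positive value, 0.34 (SE 0.162, adjusted p = 0.253, edgeR), at 7.72, 8.22 and 5.62 CPM in mutants and 5.82, 5.45 and 5.71 CPM in wild type. Here too mutant pools 1 and 2 were high and mutant pool 3 lay within the wild-type range, and without it the log2 fold change was 0.49 (adjusted p = 0.0544, edgeR, the lowest of a range up to 0.638 over the alternatives). Without mutant pool 3, the genes separated between genotypes numbered 6 lower (the same 5 and scn4aa) and 5 higher (cacna1sa, cacna1i, cacng4b, scn12aa and cacna1hb), when 22.8% of all genes were lower and 22.5% higher by that criterion.

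Many of these genes are duplicates left by the teleost whole-genome duplication. Compared here were 24 pairs whose symbols differ only in a last letter a or b. The cacna2d4 pair was left out because its a symbol has 2 rows, and duplicates with symbols of another form were not sought. In 23 pairs the same copy was the more abundant in all 6 pools, and in 13 pairs the copies differed by at least 2-fold in FPKM. The most unequal pair was that of the skeletal muscle sodium channel, where scn4ab exceeded scn4aa 58.1-fold. cacng1a exceeded cacng1b 8.43-fold and scn4ba exceeded scn4bb 7.24-fold. The cacnb2 pair was the exception in order, with a mean ratio of 1.03-fold and log2 ratios of the a to the b copy from -0.24 to 0.11 over the pools. The largest difference of a log2 ratio between genotypes was 0.47, for scn12aa over scn12ab (1.93 ± 0.348 in mutants, 1.46 ± 0.143 in wild type, SD, n = 3), and those values overlapped. In 4 pairs, among them scn8a, scn4b and cacna1h, the ratios did not overlap, and no share of other gene pairs was computed to set beside this count.

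**Figure D5:**
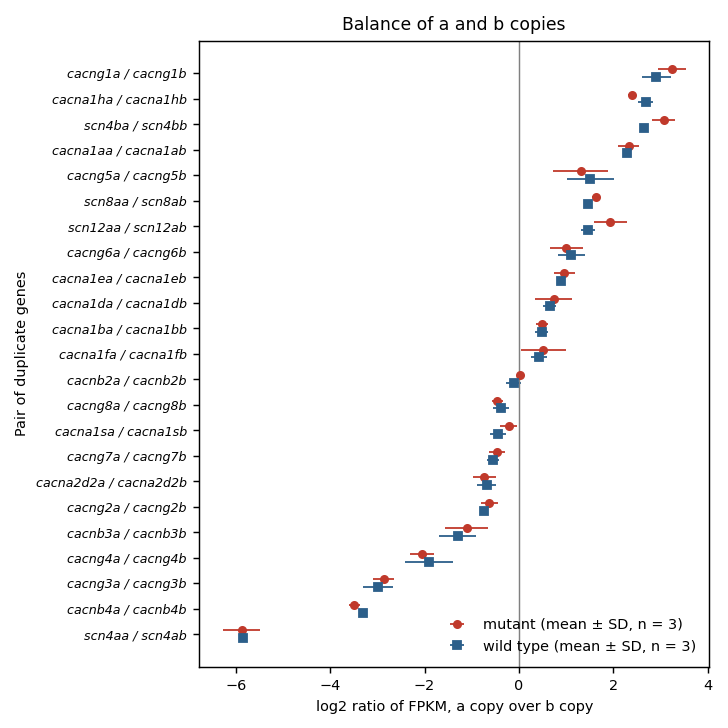
Log2 ratio of the FPKM of the a copy over the b copy for 23 duplicate pairs, as mean ± SD over 3 pools of each genotype. Ratios range from scn4a at the bottom, where the b copy is 58.1-fold higher, to cacng1 at the top. Mutant and wild-type means are at most 0.47 apart on the log2 scale, in scn12a. The ratios of scn8a, scn4b and cacna1h do not overlap between genotypes.

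Some of the channel genes lie side by side in the genome. In the RefSeq gene order of assembly GRCz12tu, in which 59 of 60 channel symbols were found, 8 couples of channel genes were direct neighbors: scn4ba with scn2b, cacng6b with cacng8b and cacng8b with cacng7b, the matching cacng6a, cacng8a and cacng7a, cacng1b with cacng4b, and cacng5a with cacng1a and cacng1a with cacng4a. Values of neighbors are given for 2 couples, with no test. scn4ba was at -0.33 and its neighbor scn2b at -0.12 (SE 0.140), and cacng4b at 0.34 adjoined cacng1b at -0.41 (SE 0.241).

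Proteins that work with these channels were examined as a list of 68 genes, of which 63 were found in 65 rows. Among these partners 1 rose and 1 fell at an adjusted p of 0.05 (edgeR), against 3.82% and 2.17% of all genes. The gene that fell was cabp2b, a calcium-binding protein that regulates Cav1 channels at hair cell and retinal synapses, at 4.90, 4.97 and 5.78 CPM in mutants and 8.70, 8.03 and 8.22 CPM in wild type, a log2 fold change of -0.67 (SE 0.122, adjusted p = 0.0229, edgeR). Every mutant pool was lower. The gene that rose was calm3a (ENSDARG00000074057), one of several genes for calmodulin, the calcium sensor bound to Nav and Cav channels, at 864, 843 and 953 CPM in mutants and 680, 649 and 619 CPM in wild type, a log2 fold change of 0.45 (SE 0.0944, adjusted p = 0.0362, edgeR). With pool number as a block its adjusted p was 0.0567 (edgeR), and a second row of the same name gave -0.17 (SE 0.0819), so reads may be split between near-identical copies.

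The other partners stayed short of the threshold in edgeR. Calcium sensors and active zone proteins were below 0 in 19 of 23 rows (median -0.16), and calcium extrusion genes, the plasma membrane pumps and sodium-calcium exchangers, in 13 of 13 (median -0.11), with no extrusion gene passing the test. Both groups were low in mutant pool 3, at medians of -0.32 and -0.45 relative to wild type. The skeletal coupling genes, which release and store calcium downstream of cacna1sa, had a median of -0.04 over 12 genes, sodium channel anchoring genes -0.06 over 12 and the other intracellular release channels -0.17 over 5, and none of these passed in edgeR. With DESeq2 the skeletal coupling gene jph1b passed, at a log2 fold change of -0.34 and an adjusted p of 0.0411.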

How the data were processed

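Total RNA from dissected heads was made into libraries with a TruSeq RNA v2 kit (Illumina), which does not keep strand, and each of the 6 libraries was sequenced in 2 lanes. Raw counts per gene, which the authors deposited, come from HTSeq on reads placed uniquely on GRCz10 by GSNAP, without a strand setting given in the sources used here, so overlapping genes and near-identical copies are uncertain. They also deposited FPKM, which was checked to equal counts over exonic length and column total. A deposited table of the authors' DESeq2 comparison, with mean counts, log2 fold changes, test statistics and p-values, was not used.

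Both lanes of a library agreed within counting error (chi-square per degree of freedom 0.991 to 1.01, against 18.2 to 83.8 between pools of one genotype) and were summed, so n = 3. Nothing states that pools came from separate clutches, so p-values measure the spread between these pools. The main test was edgeR's quasi-likelihood test (version 4.0.16, R 4.3.3) after TMM normalization and the default filter, with a genotype term alone, and p-values were adjusted by Benjamini-Hochberg across 22753 genes. The SE is the log2 fold change divided by the square root of F. Alternatives were DESeq2 1.42.0, its size factors, other filters, single lanes, a block for pool number, each pool left out, and limma 3.58.1 on log2(FPKM + 0.1) or log2(FPKM + 1) for medians. Counts without mutant pool 3 were added after seeing the data. Same-numbered pools deviated together (r = 0.419, 0.509 and 0.244 over genes), so the numbers were taken to pair the pools in the block alternative. The main test and the exact permutation test did not use this pairing, and its origin is not given in the sources used here. Over the channel genes alone r was 0.178, 0.312 and -0.302, so pool 3 did not show the pairing there. Mutant pool 2 with wild-type pool 3 gave 0.438, and mutant pool 3 with wild-type pool 1 gave 0.392.

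The genes and lists were chosen with earlier results of these data known. Genes were named by rule: cacna1fa, any gene at an adjusted p of at most 0.05, any without overlap and at least 1.5-fold, the highest FPKM of each class, the 5 largest positive and 5 largest negative log2 fold changes among genes of at least 1 CPM, and rb1. Others are named as members of a count or pair, or after their values were seen. Of the 61 genes, 2 are kept in all counts and medians but not reported here by name or in figures, although the naming rule covers 1 of them and it lies nearer the threshold than some genes named. No sequences are printed.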

Additional observations from a re-analysis of the deposited data

How the results depend on the processing

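Of 356 results recomputed under the alternatives, 334 kept their direction and their side of the threshold, or for counts stayed within 1.5 times and for medians within 1 SD between pools of the reported value. At an adjusted p of at most 0.05, channel genes called numbered 0 in edgeR, 3 with DESeq2 (scn4bb and scn4ba among them) and 0 to 1 when 1 pool was left out, where the 1 was scn4bb without mutant pool 3. The replicate block, with pool number as a term, left this count at 0 and moved the count over all genes from 1363 to 2078. Among the named results it took calm3a above an adjusted p of 0.05 and brought the proliferation marker mcm2 below it (0.0279, edgeR). It brought rb1 past the stricter threshold (0.00614, edgeR) and took the proliferation marker top2a out of it (from 0.00633 to 0.0116, edgeR), changing no other call. DESeq2 called 2618 genes at that threshold and 1102 at the stricter one, where edgeR called 269. Leaving out 1 pool gave 214 to 1610 and 1 to 219. The stricter count was 35 without mutant pool 1, 170 without mutant pool 2, 3 without wild-type pool 2 and 1 without wild-type pool 3. The other count was 250, 214 and 557 without mutant pool 1 and wild-type pools 2 and 3, and 1610 without mutant pool 3. Each of these fits had 1 pool fewer, and the cause of the differences between them was not tested. The log2 fold change of cacnb4b (range -0.034 to 0.10) was -0.031 without mutant pool 2 and -0.034 without wild-type pool 1, and that of scn8aa (range -0.236 to 0.038) was 0.038 without mutant pool 3. When 1 pool was left out, class medians ran from -0.326 to -0.034 for Cav β, -0.29 to -0.024 for Cav α2δ, -0.314 to 0.066 for Cav2, -0.141 to 0.055 for Cav1, -0.197 to 0.072 for Cav3, -0.154 to -0.017 for Cav γ, -0.276 to -0.001 for neuronal and -0.068 to 0.038 for muscle genes. They ran from -0.269 to -0.18 for Nav α, -0.304 to -0.199 for Nav β, -0.326 to -0.134 for genes classed as other and -0.321 to -0.024 for photoreceptor and hair cell genes. The Nav α median was -0.07 with limma on log2(FPKM + 1), and the cause was not tested. With 3 pools of each genotype, changes under about 1.5-fold in single channel genes were often not detectable at this spread between pools.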
